A study of Mus musculus with 8 samples.

Results

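Wnt ligands, their receptors and their inhibitors were examined in 8 libraries of mouse tumor as 56 genes of a table of 49671. They were taken by symbol: every Wnt and Frizzled (Fzd) gene, Dkk1 to Dkk4, the Sfrp, Rspo and Dact families, the receptors Lrp5, Lrp6, Ror1 and Ror2, and Axin2, Lef1, Tcf7, Nkd1, Notum, Znrf3, Rnf43 and Wif1. The rule goes by symbol and uses no measured value, but it was written with earlier results of these data known. The tumors carried Cre at the Hprt locus (HprtCre) and loxP sites in Ewsr1 and in Atf1, so that recombination can fuse an RNA-binding protein gene to a CREB family transcription factor gene, the fusion of human clear cell sarcoma. All 8 share this genotype, received no drug and were frozen when the primary tumor had made the animal ill. There was no control tissue; the submitters made the series to set it beside an earlier data set, which is not used here. The titles number the libraries 1, 2L, 2R, 3, 4a, 4b, 5 and 6, without saying what a shared number or a suffix means or which libraries come from separate animals, so the one test used below measures only the spread between libraries. Cre from Hprt is not tied to 1 cell type, and a whole tumor contains stroma and blood cells beside tumor cells.

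Wnt proteins are secreted lipid-modified ligands that bind Frizzled receptors. With the co-receptors Lrp5 and Lrp6 they stabilise beta-catenin, which drives transcription with the factors Tcf7 and Lef1. Other Wnt proteins signal through Ror1 and Ror2 without beta-catenin. Axin2, Nkd1, Notum, Znrf3 and Rnf43 are themselves switched on by the pathway in many tissues and damp it, while R-spondins block Znrf3 and Rnf43. Wnt signals are known for directing neural crest cells toward melanocytes, the lineage that clear cell sarcoma resembles.

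Total counts ran from 4817902 in library 3 to 19682149 in 2L. Levels are given in CPM, counts relative to library size after TMM scaling, which corrects for a few very abundant RNAs. Library 3 stood apart with the lowest depth and a TMM factor of 0.394 (0.830 to 1.365 elsewhere). Scaling by library totals alone moves the median gene of library 3 by -1.345 on the log2 scale and that of the other libraries by -0.269 to 0.449, so both scalings are given below where library 3 is the highest. Lowest libraries are named by TMM unless stated. The labels name the tissue only as tumor. Of 7 melanocyte markers, Mitf lay between 30.3 CPM in 1 and 131 CPM in 3 (51.4 CPM by totals alone, when 6 was the highest) and Dct between no count in 6 and 74.0 CPM in 3 (29.2 CPM by totals alone, when 2L was the highest), Pmel reached at most 1.91 CPM, Tyr, Tyrp1 and Mlana had no count, and the neural crest gene Sox10 did not exceed 0.235 CPM. Muscle genes were concentrated in 2L and 3, with a summed level of 21570 and 6804 CPM for 11 genes against 15.6 to 123 CPM elsewhere.

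A mean of 1 CPM was reached by 44 of the 56 genes (78.6%) and one of 10 CPM by 23 (41.1%), against 62.9% and 42.8% of all 21811 protein-coding genes of the table. Only Lrp6 exceeded a mean of 100 CPM. Receptors were widely present, with 9 of 10 Frizzled genes and 4 of 4 co-receptors at 1 CPM or more. Of the 19 Wnt genes 11 reached that level and 2, Wnt10a and Wnt5a, reached 10 CPM. Dkk4 and Wnt8a had no count in any library, a result that allows 0.0257 CPM at most over all 8 together, by counting error only. The filter for the test, which asked for about 10 counts of a library of median size in every library, kept 28 members. It left out all 4 R-spondins and genes that are abundant in some tumors but nearly missing in another, such as Lef1 and Wif1. In whole-tumor RNA, fewer cells of a type and less RNA per cell cannot be told apart.

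**Figure D1:**
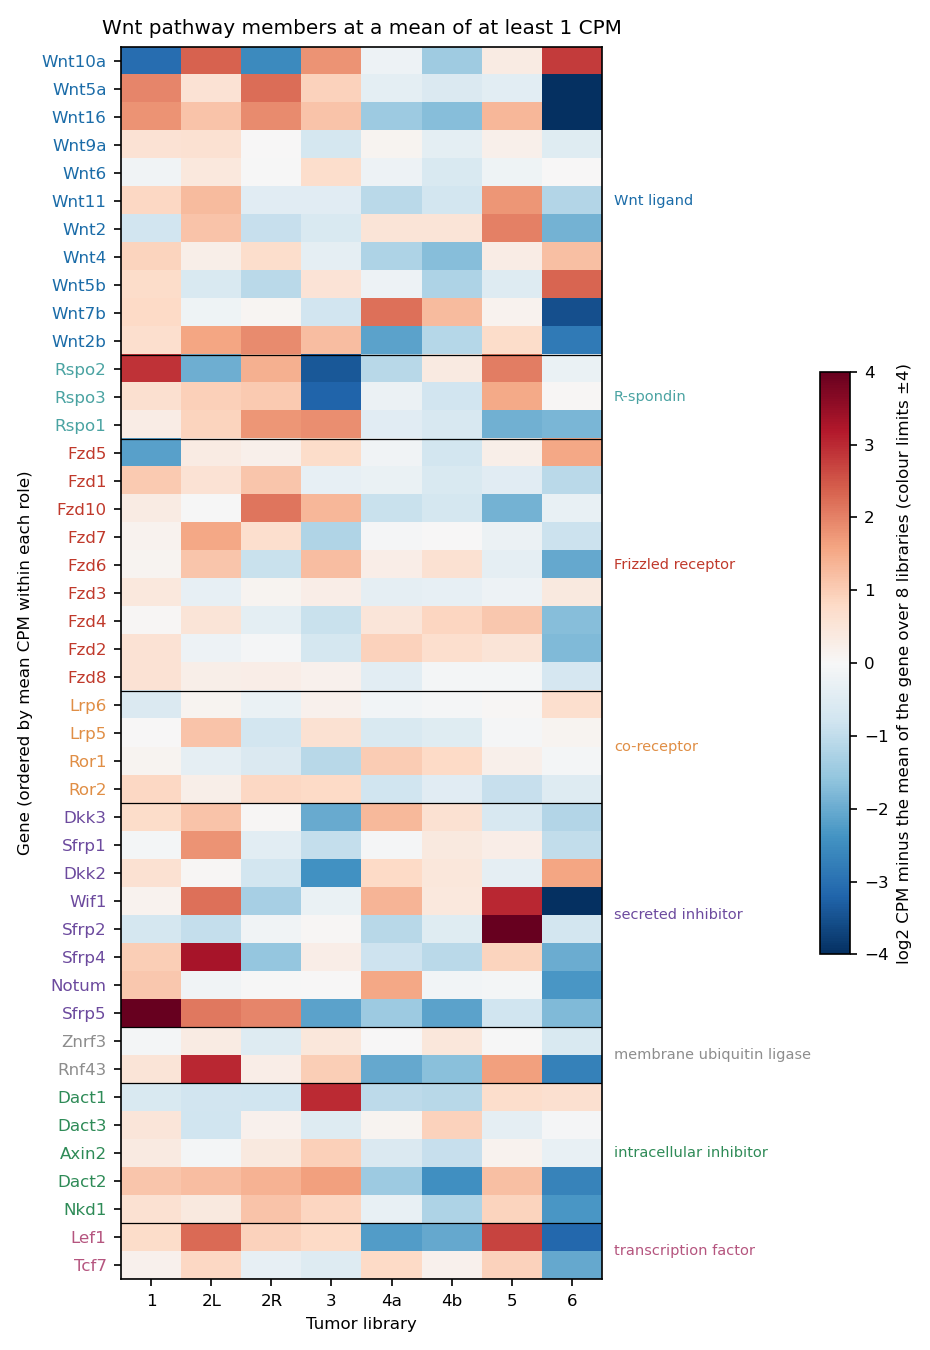
The colour map shows each of the 44 members at a mean of at least 1 CPM (rows, grouped by role) in the 8 tumor libraries (columns) as log2 CPM minus the gene's own mean, so red is above and blue below that mean. In library 6 Wnt10a and Fzd5 are red while Wnt5a, Wnt16, Wif1, Lef1 and Rnf43 are deep blue.

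Wnt10a, a ligand that acts through beta-catenin in skin, hair and teeth, was the most abundant Wnt per length of exon, at 18.4 CPM per kilobase. It ranged from 2.31 CPM in tumor 1 over a median of 21.04 to 138 CPM in tumor 6. The mean was 45.5 ± 51.6 CPM (SD, n = 8 libraries). The libraries 6, 2L and 3, at 138, 102 and 69.2 CPM, were high, and 2R and 1, at 3.27 and 2.31 CPM, were low. Scaled by library totals alone, library 3 held 27.3 CPM of it. Its SD on the log2 scale, 2.22, exceeded that of 99.5% of the 11505 genes that passed the filter.

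Wnt6 (mm10 chromosome 1, 74771892 to 74785322) lies next to Wnt10a (ENSMUSG00000026167, chromosome 1, 74791516 to 74804179), with 6.19 kilobases between both genes. It is a ligand of epithelia. Wnt6 stood between 3.17 CPM in 4b and 7.99 CPM in 3 (2L was the highest by totals alone), with a median of 4.59 CPM, and its SD of 0.402 was below the median of all genes tested. Of the other neighbouring pairs of the family, only Wnt9a exceeded a mean of 1 CPM. Wnt1 and Wnt10b (11.7 kilobases apart) averaged 0.0389 and 0.703 CPM. Wnt9b and Wnt3 averaged 0.0631 and 0.716 CPM. Wnt3a averaged 0.224 CPM, with 5 counts in all libraries together, and its neighbour Wnt9a 5.51 CPM.

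Wnt5a, the main ligand of Ror receptors and known for directing cell movement, ran from 0.9755 CPM in tumor 6 over a median of 23.9 to 101 CPM in 2R, with 82.8 CPM in tumor 1. Tumor 6 lay far below the next library, 4b at 14.1 CPM. Its exon-length-scaled level was 4.85 CPM per kilobase. Tumors 1 and 2R, where Wnt5a was highest, were those with the least Wnt10a. Summed over the 19 ligand genes per kilobase, Wnt5a made up 40.8% in tumor 1 and 47.9% in 2R, while Wnt10a led in each of the other 6, from 25.6% in 4b to 84.8% in 6. These shares use exon lengths of the annotation and are a description.

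Wnt16, which acts in bone and skin, ranged from 0.0813 CPM in 6, where 2 counts were found, over a median of 8.51 to 14.5 CPM in 2R. Libraries 4a and 4b were also low for Wnt16, at 1.28 and 1.06 CPM. Wnt2b was likewise lowest in 6, with no count, and highest in 2R, at 3.43 CPM over a median of 1.45. Wnt2, a ligand of lung and vessel tissue, had its maximum of 10.5 CPM in 5, with a median of 2.61. Its minimum was 0.569 CPM in 6, but by totals alone it lay in 3. Wnt11, Wnt4, Wnt5b and Wnt7b, with means from 3.05 to 4.96 CPM, complete the ligands at 1 CPM or more with Wnt6 and Wnt9a. Wnt5b and Wnt4 were highest in tumor 6, at 11.3 and 6.42 CPM. Wnt7b was highest in 4a, at 9.23 CPM, and had 1 count in 6. The other 8 ligand genes averaged under 1 CPM: Wnt1, Wnt3, Wnt3a, Wnt7a, Wnt8b, Wnt9b, Wnt10b and Wnt8a, which had no count.

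R-spondins, the secreted enhancers of Wnt signals, were scarce. Rspo2 was highest in tumor 1 at 10.6 CPM, with a median of 1.40 CPM, and had no count in library 3, where 3 counts would be 1.60 CPM. Rspo3 lay between no count in 3 and 3.475 CPM in 5, with a median of 1.52 CPM. Rspo1 ran from 0.105 CPM in 5 to 3.20 CPM in 3 (6 counts; 2R was the highest by totals alone), with a median of 0.7575 CPM. Rspo4 averaged 0.333 CPM. Their receptor Lgr4 was far more abundant, at 12.8 CPM per kilobase against at most 0.640 for an R-spondin, while the stem cell receptors Lgr5 and Lgr6 reached means of 5.98 and 7.73 CPM and were highest in tumor 1.

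**Figure D2:**
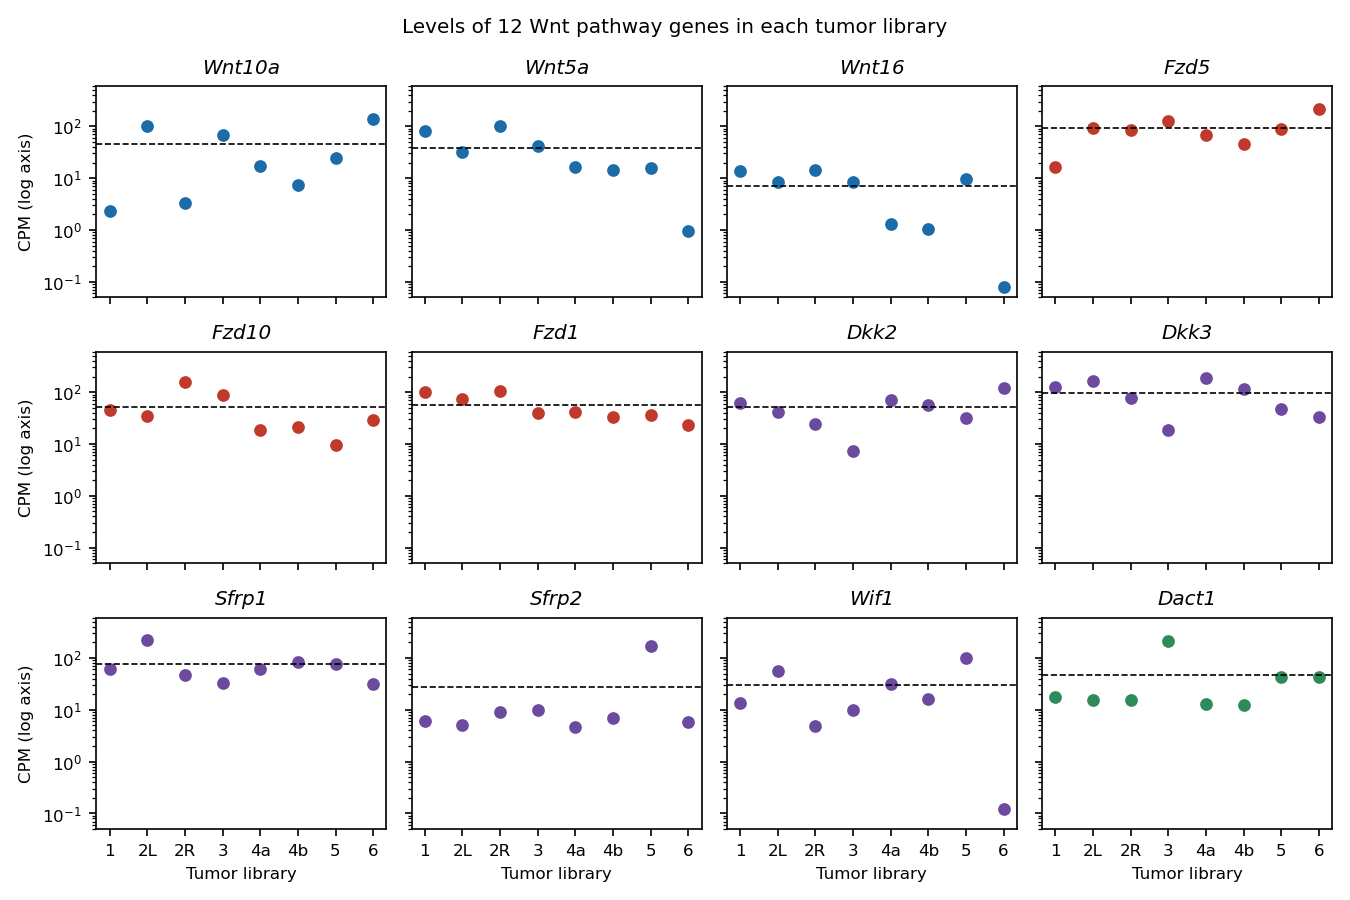
Each panel gives the CPM of 1 gene (log axis, equal in all panels) in the 8 tumor libraries, with a dashed line at the mean. Wnt10a and Fzd5 are highest in library 6, where Wnt5a, Wnt16 and Wif1 are lowest, Sfrp2 stands out in library 5 and Dact1 in library 3.

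Among the Frizzled receptors, Fzd10, Fzd1 and Fzd5 had the highest levels per kilobase, at 15.6, 13.5 and 13.4 CPM, and which of them led differed between tumors. Fzd5, known from gut and eye, ran from 16.7 CPM in tumor 1 over a median of 86.9 to 217 CPM in tumor 6. Tumor 1 was low for both Fzd5 and Wnt10a, and tumor 6 was highest for both. Fzd10 ran from 9.48 CPM in 5 over 32.15 to 157 CPM in 2R, with 89.5 CPM in library 3 (35.2 CPM by totals alone). Fzd1 ran from 23.3 CPM in 6 over a median of 40.1 to 107 CPM in 2R and 101 CPM in 1. Fzd1 and Wnt5a thus shared their highest pair of tumors, 1 and 2R, and their lowest, 6, which for Fzd1 was library 3 by totals alone.

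Fzd6, which takes part in tissue polarity, had its minimum of 5.24 CPM in 6 and its maximum of 52.7 CPM in 3, over a median of 25.3. By totals alone library 2L was the highest for Fzd6. Fzd4, the receptor for norrin in vessels, had 5.41 CPM in 6, 38.1 CPM in 5 and a median of 21.55. Of the endothelial list of 10 genes, all above 1 CPM, 6 were also lowest in 6, among them Cdh5 at 20.5 CPM and Pecam1 at 29.1 CPM, while its summed level was 1342 CPM in 6 and 628 CPM in 5, with Kdr at 833 and 118 CPM. By totals alone Fzd4 and 6 of the 10 genes were lowest in 3. The part of these cells in the Fzd4 values was not tested. Fzd7 was highest in 2L, at 71.2 CPM, and Fzd2 in 4a, at 11.9 CPM. Fzd3 was even, from 20.75 to 35.7 CPM. Fzd8 averaged 2.41 CPM and Fzd9, at 0.739 CPM, had 76 of its 118 counts in 2L.

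The 4 co-receptors all spread less between libraries than the median member that passed. Lrp6 ran from 148 CPM in tumor 1 over a median of 221 to 354 CPM in tumor 6. Its mean was 228 ± 60.5 CPM (SD, n = 8 libraries). Its SD on the log2 scale, 0.365, exceeded that of 27.7% of all genes tested. Lrp5, the bone mass gene, had 136 CPM in 2L, its maximum, and 37.7 CPM in 2R, its minimum, over a median of 61.35. The kinase-like receptor Ror1 was highest in 4a and 4b, at 40.1 and 34.8 CPM, and lowest in 3 at 9.06 CPM (median 20.05). Ror2 was highest in 2R, 1 and 3, at 17.0, 16.9 and 16.5 CPM, and lowest in 5 at 4.95 CPM (median 9.12). Ror1 and Ror2, both receptors for Wnt5a, thus had different maxima and minima.

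Secreted inhibitors included the most abundant member per length, Dkk3, at 28.6 CPM per kilobase and the 91.9th percentile of the genes that passed. Dkk3 is a divergent Dickkopf protein of the matrix. It ran from 18.6 CPM in library 3 over a median of 96.2 to 186 CPM in 4a. Dkk2, a ligand of Lrp6 that can block or enhance the pathway, ran from 7.46 CPM in 3 over 48.9 to 122 CPM in 6. Library 3 was the lowest for both, with and without TMM scaling. It was the lowest for 31.7% of all genes at a mean of at least 1 CPM, and for 69.1% by totals alone. The summed level of the fibroblast list (8 of 8 genes above 10 CPM) was also lowest there, at 1488 CPM against 4908 to 22380 CPM elsewhere. With TMM, 7 of its 8 genes were lowest in 3, as were 8 of 8 genes of the macrophage list. The part of fibroblasts and macrophages in the Dkk2 and Dkk3 values was not tested. Dkk1, a classic Lrp6 blocker and Wnt target, had 15 counts in 5, 8 in 2L and none elsewhere.

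Sfrp proteins bind Wnt ligands outside the cell. Sfrp1 ran from 32.1 and 32.5 CPM in 6 and 3 over a median of 60.9 to 218 CPM in 2L. By totals alone it was lowest in 3. For Sfrp2, tumor 5 held 168.5 CPM and the other 7 held 4.555 to 10.1 CPM, with a median of 6.53. Its mean of 27.0 CPM therefore describes no single tumor. Sfrp4 reached 40.2 CPM in 2L, no more than 7.90 CPM in any other library and 0.894 CPM in 6, with a median of 3.47. By totals alone Sfrp4 was lowest in 2R. Sfrp5 was found mainly in tumor 1, at 10.9 CPM, with 2.43 CPM in 2L, 2.18 CPM in 2R and at most 2 counts in any of the other 5. So Sfrp1 and Sfrp4 peaked in 2L, Sfrp2 in 5 and Sfrp5 in 1. The fat cell list, of which 1 of 5 genes reached 1 CPM, was also highest in tumor 5 (summed level 115 CPM against 8.15 to 18.1 elsewhere, mostly Fabp4). Its part in the Sfrp2 value was not tested.

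Wif1, a secreted protein that traps Wnt ligands, had the largest SD on the log2 scale of all members, 2.65. It ran from 0.122 CPM in tumor 6 (3 counts) over a median of 15.1 to 101 CPM in 5, with 57.2 CPM in 2L. Notum, an enzyme that removes the lipid from Wnt proteins, was highest in 4a at 4.80 CPM and lowest in 6 at 0.203 CPM (5 counts), with a median of 1.52 CPM. In the epidermal list, some genes were high in the same libraries 5 and 2L as Wif1 and others were not. Krt14 stood at 55.1 and 45.6 CPM there and at no more than 6.04 CPM elsewhere, and Dsp at 350 and 411 CPM against at most 54.9 CPM. Krt5, in contrast, had 193 CPM in 3 with 1.325 CPM as its next highest value. By totals alone these Krt5 values were 76.1 and 1.77 CPM. Krt10 was lowest in 2L, at 0.3135 CPM. Of that list 7 of 10 genes reached 1 CPM, and Krt1 and Trp63 were near 0 throughout. Its summed level was 1322 and 1282 CPM in 5 and 2L and 450 to 977 CPM in the others. Perp was a large part of these sums and had another order. It was highest in 1, at 889 CPM, with 627 and 414 CPM in 5 and 2L. The part of such cells in the Wif1 and Lef1 values was not tested.

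Inside the cell, the Dishevelled-binding protein gene Dact1 was set apart by library 3. Library 3 held 212.5 CPM of it and the other 7 held 12.2 to 43.2 CPM, with a median of 16.5. By totals alone library 3 remained the highest, at 83.7 CPM, which rests on 399 counts. Dact2 was highest in 3 at 7.46 CPM (2L by totals alone), with a median of 5.27 CPM, and was below 1 CPM in 4a, 4b and 6. Dact3 was the evenest of these, from 6.62 CPM in 2L over 11.8 to 21.7 CPM in 4b.

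The promoters of members were read because the fusion keeps the DNA-binding part of Atf1, whose family recognises the cyclic AMP response element TGACGTCA, and because Lef1 and Tcf7 recognise CTTTGAT or CTTTGAA. RefSeq promoters of GRCm38.p6, from 250 bases before to 50 after a start, matched 38 of the 56 genes, with 46 starts. Both strands were searched. None of the 46 held TGACGTCA, which 1.79% of all 32851 promoters held. The half-site TGACG, which is part of that element, occurred in 8 of 46 (17.4%, against 20.8% of all), and a Lef1 and Tcf7 word in 3 of 46 (6.52%, against 8.65%), in Dkk1, Wnt5b and Wnt11. Member promoters were richer in G and C, with a median of 66.5% against 52.7%. Shown are the 250 bases before the start of Dact1 (chr12:71309634-71309883, plus strand), the gene that library 3 set apart, and before the first start of Wnt11 (chr7:98834862-98835111, plus strand), the only matched gene with both words; capitals mark TGACG, its reverse complement CGTCA, and ATCAAAG, the reverse complement of CTTTGAT.
Dact1: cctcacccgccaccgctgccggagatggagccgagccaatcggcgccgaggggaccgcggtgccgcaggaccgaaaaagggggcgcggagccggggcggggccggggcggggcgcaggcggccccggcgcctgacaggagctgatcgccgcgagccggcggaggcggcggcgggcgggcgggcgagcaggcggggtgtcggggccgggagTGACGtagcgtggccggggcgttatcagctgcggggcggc
Wnt11: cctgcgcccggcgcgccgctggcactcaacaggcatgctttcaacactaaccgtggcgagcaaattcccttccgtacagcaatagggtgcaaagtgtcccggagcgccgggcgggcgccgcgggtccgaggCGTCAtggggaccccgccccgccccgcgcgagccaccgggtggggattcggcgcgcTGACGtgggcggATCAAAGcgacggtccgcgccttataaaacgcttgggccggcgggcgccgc
In Dact1 the half-site begins 40 bases before the start. In Wnt11 the half-sites begin 119 and 63 bases and the Lef1 and Tcf7 word 51 bases before the start. A match of letters describes the sequence and does not show binding. Wnt11 itself ran from 1.585 CPM in 6 over a median of 2.655 to 13.1 CPM in 5. By totals alone it was lowest in 3.

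Of 7 members known as Wnt targets and feedback genes (Axin2, Lef1, Tcf7, Nkd1, Notum, Rnf43 and Znrf3), 6 were lowest in tumor 6, as were 18.1% of all genes at a mean of at least 1 CPM. Dkk1, also a target, was left out of this group, since it had counts in 2L and 5 only. Lef1 ran from 0.488 CPM in 6 over a median of 9.37 to 36.1 CPM in 5, with 26.5 CPM in 2L and about 1 CPM in 4a and 4b (1.04 and 1.21). Tcf7 ran from 1.38 CPM in 6 over 6.89 to 11.7 CPM in 5. Both genes are also expressed by T cells. The T and NK cell list was low in 6 (summed level 9.23 CPM) and just as low in 1, 4a and 4b (8.61, 10.8 and 9.60 CPM), while 2L and 2R held 68.4 and 57.5 CPM. Of that list 8 of 9 genes reached 1 CPM and none reached 10 CPM. In 4a and 4b, Tcf7 stood at 10.7 and 6.95 CPM and Lef1 at 1.04 and 1.21 CPM. The part of T cells in the Lef1 and Tcf7 values was not tested.

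Rnf43, a membrane ligase that removes Frizzled receptors, had its maximum of 11.4 CPM in 2L and its minimum in 6 at 0.0813 CPM (2 counts), with a median of 1.71 CPM. Its relative Znrf3 was even, from 10.3 CPM in 6 over 15.8 to 21.8 CPM in 3. Nkd1, which binds Dishevelled, ran from 0.2845 CPM in 6 over 2.87 to 4.52 CPM in 2R. Axin2, a widely used target of beta-catenin and a scaffold of its destruction complex, did not place tumor 6 last. It stood at 8.33 CPM there, above 4a and 4b at 6.87 and 5.365 CPM, with a median of 10.45 CPM and a maximum of 19.7 CPM in 3. By totals alone Axin2 was highest in tumor 1 and Znrf3 in 2L, and Tcf7 and Znrf3 were lowest in 3, which leaves 4 of the 7 lowest in 6, against 8.35% of all genes.

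**Figure D3:**
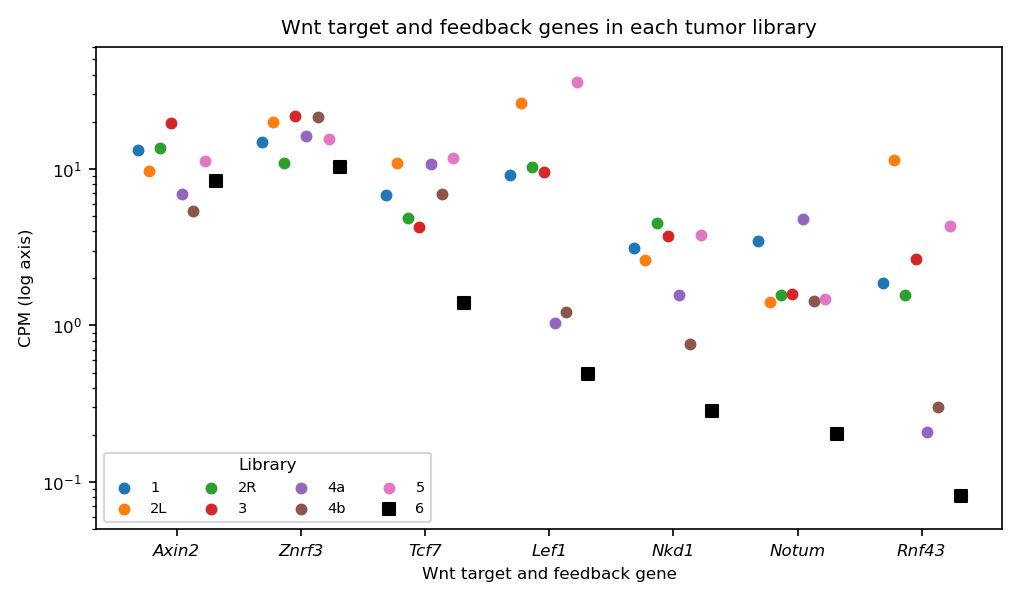
Points give the CPM (log axis) of 7 Wnt target and feedback genes in each of the 8 tumor libraries, with library 6 as a black square. The square is the lowest point for all of them except Axin2, where 4a and 4b lie below it.

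Library 6 was the lowest of the 8 for 21 of the 44 members at a mean of at least 1 CPM (47.7%), against 18.1% of all 15227 genes at that level. With DESeq2 size factors the numbers were 21 of 44 and 17.8%. With library totals alone, where library 3 is lowest for 69.1% of all genes, 11 of 44 members (25.0%) and 8.35% of all genes were lowest in 6. The 11 were lowest there under each of the 3 scalings: Wnt5a, Wnt7b, Wnt16, Wnt2b, Fzd6, Wif1, Notum, Lef1, Rnf43, Nkd1 and Dact2. Library 3 was the lowest for 23 of the 44 by totals alone. With totals alone the highest library was another one for 16 of the 44 members. It was 1 in place of 2R for Wnt5a, Wnt16, Fzd1 and Ror2, and 2L in place of 5 for Lef1 and Tcf7. It was 5 in place of 2R for Nkd1, 2L in place of 2R for Wnt2b, 4b in place of 5 for Fzd4 and 6 in place of 1 for Fzd3. The other 6 were the members named above with library 3 as the highest under TMM only. Tumor 6 was also the highest for 6 members under each of the 3 scalings: Wnt10a, Wnt4, Wnt5b, Fzd5, Lrp6 and Dkk2. With TMM these were 13.6% of the 44 members, against 14.8% of all genes highest in 6, so this share was near the background. The macrophage list (8 of 8 genes above 10 CPM) had its highest summed level in 6, at 3818 CPM against 275 to 1668 CPM elsewhere, and the Schwann cell list (5 of 8 genes above 1 CPM, Sox10 at 0) stood at 608 CPM there against 42.2 to 218 CPM elsewhere. The part of these cells in the result was not tested.

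Members differed more between libraries, by the median, than all genes tested. The 28 members that passed the filter had a median SD of log2 CPM of 0.887, against 0.513 over all 11505 genes tested, and 22 of the 28 lay above the latter. Their median level was like that of all genes, at a mean of 27.05 against 26.4 CPM. Wnt10a, Wnt5a, Sfrp4, Sfrp2 and Dact1 had the largest SD, and Fzd3, Lrp6, Fzd8, Wnt6 and Znrf3 the smallest. By totals alone the medians were 1.11 for members and 0.769 for all genes, a smaller ratio. Without library 3 the medians were 0.815 and 0.407, and without library 6 they were 0.784 and 0.505. This is a description of the list, which was not tested as a set.

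**Figure D4:**
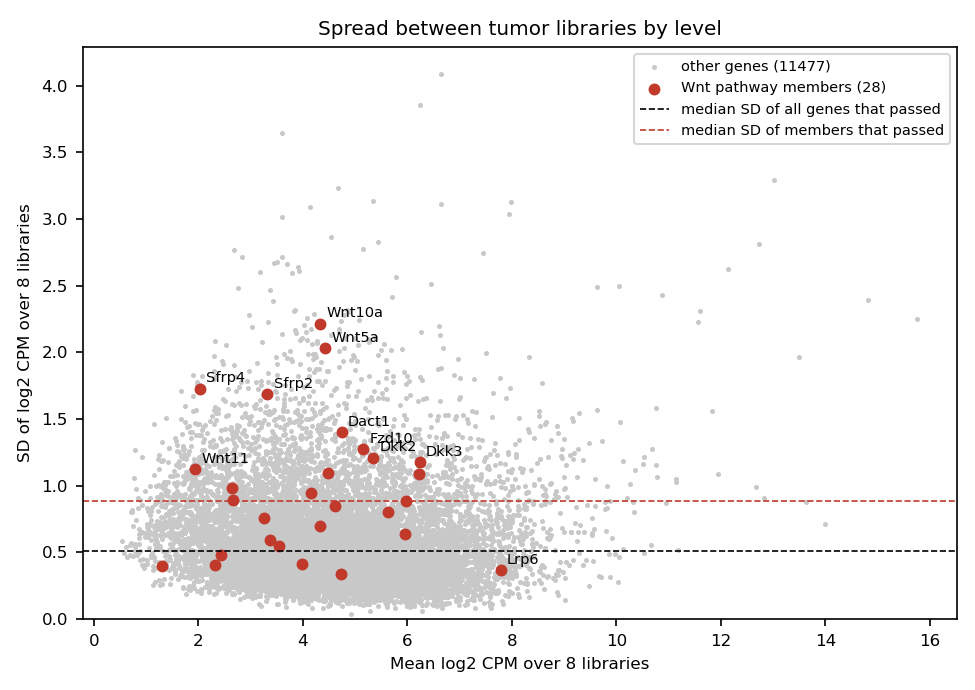
Each point is 1 of the 11505 genes that passed the filter, placed by its mean log2 CPM and by the SD of its log2 CPM over the 8 libraries, with the 28 members in red. The dashed lines mark the medians, 0.887 for members and 0.513 for all genes, and the highest red points are Wnt10a and Wnt5a.

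Libraries with the same title number were used to ask whether libraries differ by number. No member passed edgeR's quasi-likelihood test among the 6 numbers after Benjamini-Hochberg adjustment over all genes (0 of 28), and neither did any other gene (0% of 11505). The smallest adjusted p among members was 0.0955, for Dact1, followed by 0.0974 for Sfrp2. Without adjustment 12 of 28 members had a p under 0.05 (Dact1, Dkk2, Dkk3, Fzd1, Fzd2, Fzd4, Fzd5, Fzd7, Ror1, Ror2, Sfrp2 and Wnt5a), against 24.5% of all genes. The DESeq2 likelihood ratio test called 14 of 28 members, against 20.7% of all genes. Without 2L or without 2R, where 4a and 4b alone measure the spread within a number, edgeR called 21 of 28 and 21 of 29 members, against 38.7% and 39.3% of all genes. With no filter beyond 1 count it called 32 of 54, against 20.6%. The call thus depends on the 2L and 2R pair, whose libraries differ widely, and on the tool and filter.

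Between 2L and 2R, 10 of 28 members differed at least 2-fold, against 17.4% of all genes. Of these, 8 were higher in 2L (Wnt10a, Sfrp4, Sfrp1, Fzd6, Lrp5, Wnt11, Tcf7 and Dkk3), against 9.03% of all genes, and 2 in 2R (Fzd10 and Wnt5a), against 8.33%. Wnt10a and Sfrp4 differed most, whose log2 ratio (2L to 2R) was 4.90 and 4.87. Sfrp1 and Fzd6 followed at 2.20 and 2.02, and Fzd10 stood at -2.15. The median ratio was 0.42 for members and -0.04 for all genes. By totals alone 16 of 28 members and 31.2% of all genes passed the fold, 15 of them higher in 2L (28.8% of all genes) and 1 in 2R (2.35%). Among members that failed the filter, Wif1, Rnf43 and Wnt2 were higher in 2L, with log2 ratios of 3.53, 2.76 and 2.07, and Fzd9 at 3.41, while Rspo2 was higher in 2R at -3.38. Library 2L also held most of the muscle RNA; its part in these ratios was not tested. Each side is 1 library, so there is no test.

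Between 4a and 4b, 1 of 28 members differed at least 2-fold, against 4.45% of all genes. It was Wnt10a, at 17.2 and 7.33 CPM, a log2 ratio of 1.22. When genes at a mean of 1 CPM were admitted, 5 of 44 members passed in this pair (8.16% of all genes) and 15 of 44 in the 2L and 2R pair (25.5%). The added genes of the first pair were Notum, Wnt5b and Dact2, higher in 4a with log2 ratios of 1.65, 1.05 and 1.01, and Rspo2, higher in 4b at -1.47. Wnt10a and Rspo2 thus passed 2-fold in both pairs.

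**Figure D5:**
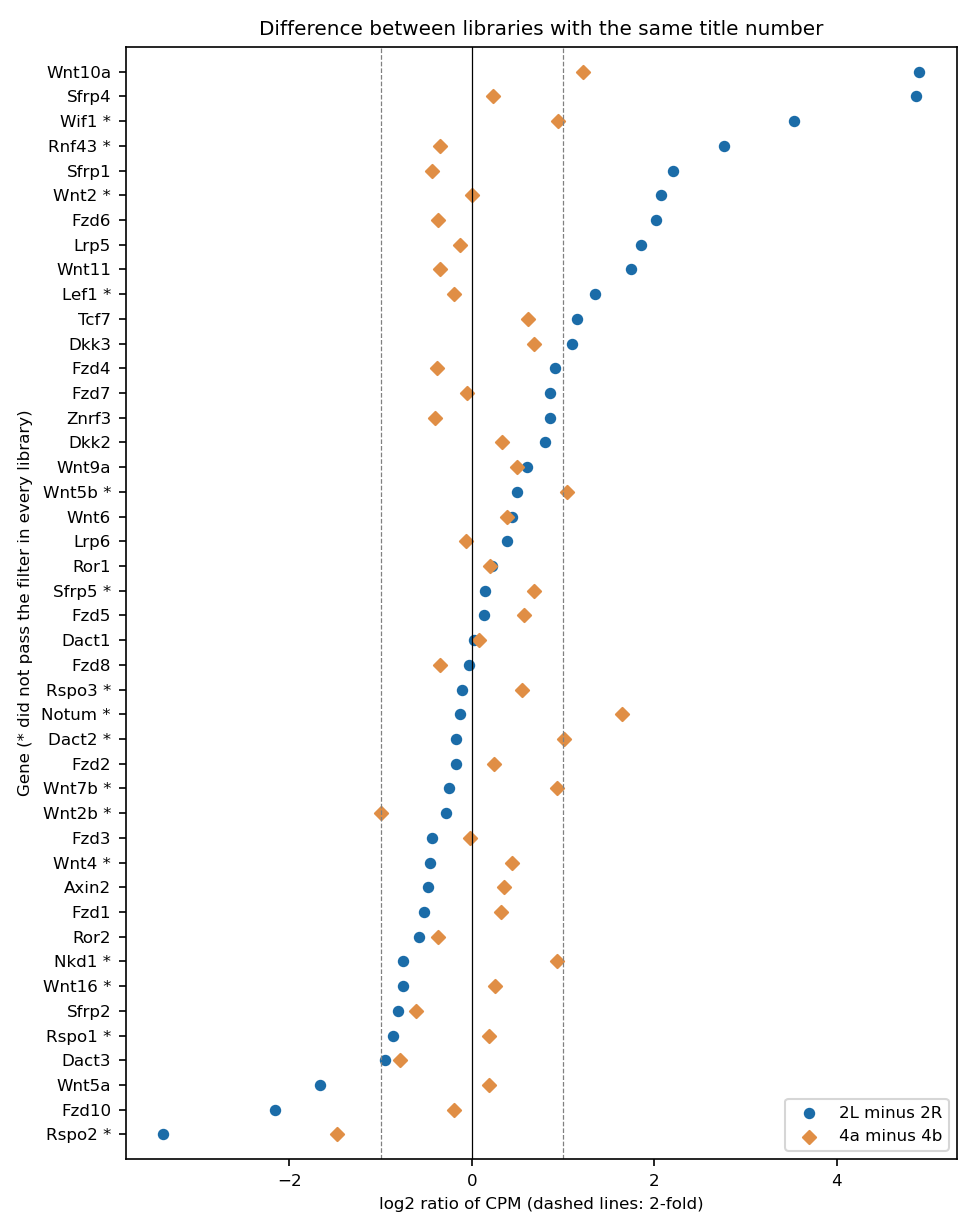
For each of the 44 members at a mean of at least 1 CPM the log2 ratio of 2L to 2R (circles) and of 4a to 4b (diamonds) is shown, with dashed lines at 2-fold. The circles spread from -3.38 for Rspo2 to 4.90 for Wnt10a, the diamonds from -1.47 for Rspo2 to 1.65 for Notum.

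The rest of the pathway was listed with 56 further genes by role, of which 45 passed the filter. None passed the edgeR quasi-likelihood test, and neither did any other of the 11505 genes. An unadjusted p under 0.05 was found for 15 of 45, against 24.5% of all genes. The median SD of these 45 genes, 0.663, lay between those of the members and of all genes. Genes for Wnt secretion were present: Wls, which carries Wnt proteins to the surface, had 442 CPM in 6, its maximum, and 20.8 CPM in 3, its minimum, and Porcn, which adds their lipid, averaged 5.52 CPM. Genes of the complex that destroys beta-catenin and of its regulators, such as Dishevelled and the tankyrases that turn over Axin, were listed together. All 14 passed, with a median SD of 0.395. Csnk1a1, a kinase that marks beta-catenin for destruction, averaged 460 CPM and the tankyrase gene Tnks2 215 CPM. Nkd2 and Apc2 varied most in this class, Nkd2 with 65.0 CPM in 2L and 2.18 CPM in 2R.

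Beta-catenin itself (Ctnnb1) was the most abundant nuclear gene per kilobase, from 379 CPM in 3 to 952 CPM in 2L. Pygo2, a partner of beta-catenin, stood at 103 CPM in 3 and at 18.2 to 32.7 CPM in the other libraries, but by totals alone at 40.7 CPM in 3 and 40.4 CPM in 2L. The factors Tcf7l1 and Tcf7l2, which stand beside Lef1 and Tcf7, averaged 9.34 and 21.4 CPM, and Tcf7l2 was lowest in 6 at 8.90 CPM. Among other receptors Ryk and Ptk7 had the highest levels per kilobase, at 17.4 and 12.8 CPM, and Ptk7 was lowest in 6, at 13.2 CPM. The glypican genes Gpc3 and Gpc6 varied most in that class, between 1.44 and 57.5 CPM and between 4.43 and 72.8 CPM. Of the polarity genes, Vangl1 and Prickle1 led per kilobase and were highest in 6, at 214 and 86.8 CPM. Celsr1 was highest in 2L at 161 CPM, and Celsr3 was lowest in 6 at 0.650 CPM. Among genes at a mean of at least 1 CPM, 1 of 10 nuclear genes was lowest in 6. So were 3 of 6 other receptors, 4 of 8 polarity genes and 4 of 14 destruction complex and Dishevelled genes, against 18.1% of all genes. By totals alone 1, 2, 2 and 1 were in the same order, against 8.35%. Of the smaller classes, 1 of 2 secretion genes, 1 of 3 R-spondin receptors and 2 of 3 other inhibitors were lowest in 6. By totals alone these were 0, 1 and 2.

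Of the 6 common targets listed, 5 reached a mean of 1 CPM, and 4 of these, Myc, Ccnd1, Sp5 and Tnfrsf19, were lowest in tumor 6, as were 18.1% of all genes at that level. By totals alone 3 of the 5 were, against 8.35%. The other two targets were not low there: Cd44 stood at 57.3 CPM in 6, above its mean of 52.0 CPM, and Ascl2, with a mean of 0.448 CPM, was highest in 6 at 1.26 CPM. Tnfrsf19 stood at 0.325 CPM in 6 and reached 68.8 CPM in 2R. Sp5 had 1 count in 6 and at most 2.47 CPM elsewhere, and Apcdd1, which encodes a membrane inhibitor of Wnt signals, stood at 0.488 CPM in 6 and reached 78.6 CPM in 2R. Ccnd1 stood at 23.6 CPM in 6 and was highest in 4a at 119.5 CPM, but by totals alone it was lowest in 3, at 14.05 CPM against 30.4 CPM in 6. Myc ran from 6.95 CPM in 6 to 770 CPM in library 3 (303 CPM by totals alone, still the highest), the library with the highest Dact1. The inhibitor genes Tpbg and Frzb averaged 15.0 and 9.39 CPM. Tpbg was lowest in 6, at 3.29 CPM, and Frzb was lowest in 3, at 2.13 CPM, and second lowest in 6, at 5.28 CPM.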

How the data were processed

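Total RNA of tumor tissue, cleared of ribosomal RNA per the labels' protocols, was sequenced as 8 libraries. The authors deposited 1 table of raw counts per Ensembl gene. Tools named in the submitters' processing notes are STAR 2.7.5a, cutadapt, RSEM and featureCounts, and the build is mm10. The counting tool and the strand setting are not given in the sources used here, so antisense genes are not separated: 13 antisense overlaps of members exist in the annotation, and the overlapping genes that were counted held at most 55 counts in all libraries together. Symbols came from GENCODE M21 (49412 identifiers matched, 259 not).

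The analysis used edgeR 4.0.16 under R 4.3.3 (filterByExpr for 1 group, 0.92 CPM in every library, TMM, prior count of 2 for log2 CPM) and DESeq2 1.42.0 as an alternative. Filtering kept 11505 genes. The test among title numbers was edgeR's quasi-likelihood F-test with 2 residual degrees of freedom, Benjamini-Hochberg at 0.05, tested on simulated data. Other results are descriptions. CPM per kilobase used the union of exons. Genes were named by the 3 highest levels per kilobase and 2 largest SD of each role, 4-fold differences within a pair (at least 10 counts) and extreme libraries; the remaining members are given by mean or range. Members and lists were chosen with earlier results of these data known. The alternatives were other scalings, filters, prior counts and tools, and leaving out each library. Intervals for 0 counts (3 counts) cover counting error only.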

Additional observations from a re-analysis of the deposited data

Results flagged for a closer look

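In 4 of 44 members at a mean of at least 1 CPM, 1 library lay far from the other 7, by the gap to its nearest neighbour on the log2 scale relative to the whole range (above Dixon's 95% critical value for 8 libraries). These were 9.09% of the 44 members, against 15.7% of all 15227 genes at that level under the same rule, so the count was not above the background. Chance flags about 1 in 20 groups. Sfrp2 had 168.5 CPM in library 5, with the next library at 10.1 CPM. Dact1 stood at 212.5 CPM in library 3, with the next at 43.2 CPM. Wnt5a stood at 0.9755 CPM in library 6, with the next at 14.1 CPM, and Notum at 0.2032 CPM in library 6, with the next at 1.41 CPM.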

How the results depend on the processing

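The mean log2 CPM of each of the 54 members with counts moved by less than 1 SD under 10 settings (540 of 540 values). The settings were 2 other scalings and leaving out each of the 8 libraries. A mean over 8 libraries hardly moves when 1 is left out or when scaling shifts of both signs cancel. These values therefore do not measure how stable the levels in single libraries are. With library totals alone, the highest library was another one for 16 of the 44 members at a mean of at least 1 CPM. The numbers of members at a mean of 1 and 10 CPM were 44 and 23 under both other scalings, and 43 to 44 and 21 to 23 when a library was left out. The median SD of the members that passed ran from 0.784 to 0.964, and that of all genes from 0.407 to 0.534, when a library was left out. Both medians were higher with library totals alone (1.11 and 0.769) and with the filter at a mean of 1 CPM (1.15 and 0.624). Members that differ among title numbers, 0 in the main test, were 14 with the DESeq2 likelihood ratio test (2383 genes in all), 32 with no filter beyond 1 count (6260 genes) and 0 to 21 when a library was left out (0 to 4548 genes), with the high values without 2L or 2R. Members past 2-fold between 2L and 2R were 16 with library totals alone, against 10. Members past 2-fold between 4a and 4b were 5 with the filter at a mean of 1 CPM, against 1. The cause was not tested. No paired analysis was possible because all libraries form 1 group. Depth limits library 3 most, where 3 counts are 1.60 CPM against at most 0.467 CPM elsewhere.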
